A study of Mus musculus with 8 samples.

Results

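The glutathione transferases *Gstm1*, *Gsta4*, *Gsto1*, *Gstp1* and *Gstt1* and the glutathione peroxidases *Gpx1*, *Gpx2*, *Gpx3* and *Gpx4* were followed through the mouse mammary epithelium. They were taken by name, with earlier results of these data known, and make up 9 of the 27998 genes in the deposited count files. Single mammary epithelial cells came from C57BL/6N mice at 4 stages, with 2 mice per stage and 1 library per mouse: nulliparous (NP, 8 weeks old), gestation (G, day 14.5), lactation (L, day 6) and post-involution (PI, 11 days after natural weaning). The labels name no allele or treatment, and ages of the G, L and PI mice are not given in them. Cells carrying CD31, CD45 or Ter119 were gated out and EpCAM-positive live cells were sorted. By the vaginal smears of the study, both NP mice and the second PI mouse were in oestrus and the first PI mouse was in dioestrus. Levels are counts of unique molecular identifiers (UMIs, 1 per captured transcript) summed over all cells of a cluster within a mouse and scaled to the UMI total of that sum as CPM, so that the mouse and not the cell is the replicate.

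Glutathione is a small thiol peptide that cells use against electrophiles and peroxides. Transferases couple it to electrophiles, among them lipid aldehydes and foreign compounds, and many of their genes are known targets of the transcription factor NRF2. Peroxidases use it to reduce hydrogen peroxide and lipid peroxides, and in *Gpx1* to *Gpx4* the active site holds selenocysteine, which the ribosome reads from a UGA codon. In the mammary gland these enzymes work in a tissue whose epithelium switches between ductal, milk-secreting and regressing states.

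The selenocysteine codon is what separates the peroxidases among the 9 genes from the transferases in sequence. An in-frame TGA before the last codon was found in each of the 4 peroxidase coding sequences and in none of the 5 transferase sequences (GENCODE transcripts, build GRCm38). The 33 bases around it are printed 5′ to 3′ as DNA, with the selenocysteine codon in capitals, because this codon is the feature that all 4 peroxidases share and the transferases lack. Codons are numbered on the longest coding sequence of each gene, which has 762 bases for *Gpx4*. The number can differ in other transcripts of the same gene, and the counts do not tell which transcript was present.
Gpx1, codon 47: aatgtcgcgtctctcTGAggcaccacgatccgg
Gpx2, codon 40: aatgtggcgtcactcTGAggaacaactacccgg
Gpx3, codon 73: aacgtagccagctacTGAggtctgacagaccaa
Gpx4, codon 129: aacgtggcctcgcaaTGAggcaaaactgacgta
Reads of this assay come from the 3′ end of a transcript, so near-copies there limit what a count means. All 31-base words in the last 300 bases of *Gstp1* also occur in *Gstp2* (100% of the words), and 47.0% of those of *Gstm1* occur in *Gstm3*. Counts of *Gstp1* in particular are therefore uncertain between these copies. *Gpx2* overlaps *Fntb* and *Gsto1* overlaps *Cfap43* on the other strand.

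In the deposited annotation 23184 cells lay in the epithelial clusters C1 to C15, 23183 of them with a barcode in the count files, and the 35 sums of at least 20 cells held 23099 of these. Total depth per library ran from 13785920 to 35711533 UMIs, the median cell held 3770 to 9624 UMIs, and the median mitochondrial share was 0.645% to 0.884%. Barcode sequences found in more than 1 library (392 sequences, 791 cells) were absent from these clusters. The hormone-sensing markers *Prlr*, *Pgr*, *Esr1* and *Cited1* summed to 1882 to 4296 CPM in C1 to C5 and to at most 121 CPM in C6 to C11, but the basal cluster C12 held 278 and 305 CPM of them in NP and 842 CPM in the second PI mouse. The basal markers *Krt5*, *Krt14*, *Acta2* and *Oxtr* summed to 6827 to 33197 CPM in C12 to C15, and alveolar cells of lactation also held some (903 to 4785 CPM in C9 and C11). C15, named for *Procr* in the annotation, also held 5441 and 4819 CPM of the pericyte markers *Rgs5*, *Des*, *Cspg4* and *Pdgfrb* and 1501 and 334 CPM of fibroblast markers in its L mice. Milk protein transcripts took 44.8% and 41.7% of the UMIs of C9, which lowers all of its other CPM values. Clusters were made by the authors from these same transcripts, so differences between clusters are given as a description, with no test.

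**Figure D1:**
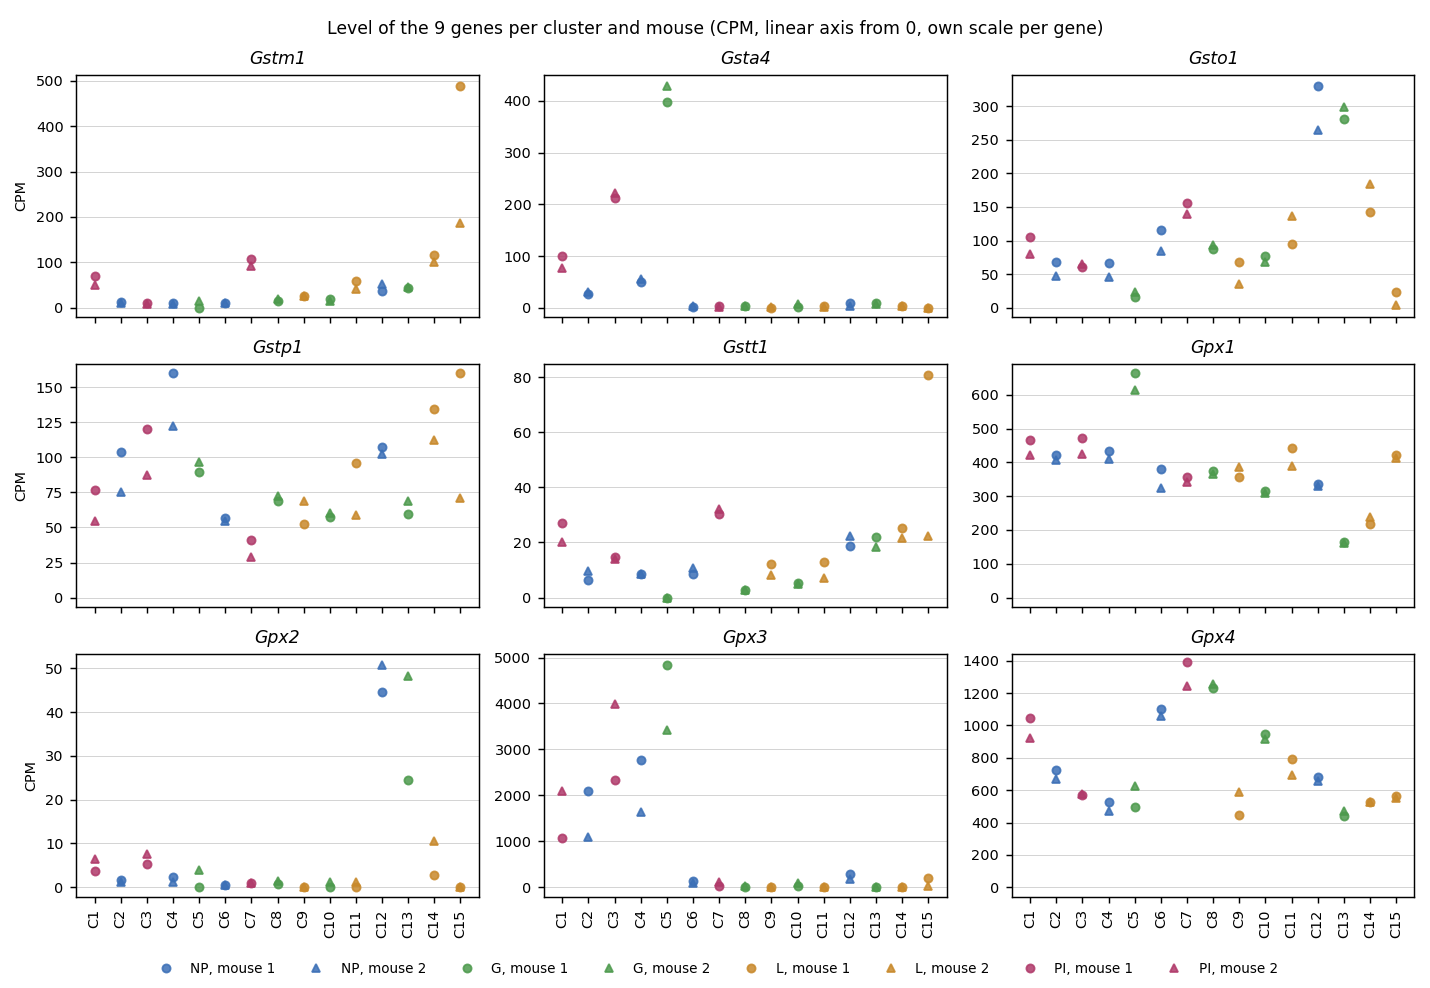
Level of each of the 9 genes in CPM (vertical axis, own scale per panel) in clusters C1 to C15 (horizontal axis), 1 point per mouse of the stage that holds most of the cluster. Colour gives the stage and shape the mouse. *Gsta4* and *Gpx3* are high in C1 to C5, *Gsto1* and *Gpx2* in the basal clusters C12 and C13, and *Gstm1* and *Gstt1* in C15, where both mice lie far apart.

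Among the transferases, *Gsta4* (chr9:78182774-78209349, + strand), an alpha class enzyme that handles lipid aldehydes, was the most restricted to hormone-sensing cells. It was highest in the gestation cluster C5 of differentiated hormone-sensing cells (Hsd), at 398 and 430 CPM in the 2 G mice. Its PI counterpart C3 stood at 212 and 222 CPM and its NP counterpart C4 at 49.9 and 55.1 CPM. The hormone-sensing progenitors (Hsp) held 99.5 and 77.6 CPM in PI (C1) and 26.9 and 30.3 CPM in NP (C2). Neighbours in this order of 5 clusters did not overlap between mice, and every cluster outside C1 to C5 had a mean of at most 8.68 CPM. In C15 no *Gsta4* UMI was counted, which allows up to 4.66 and 13.3 CPM in its libraries (3 counts each, counting error only). C5 rests on 20 and 41 cells, and with sums of at least 50 cells C3 is the highest cluster, at 217 CPM.

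*Gsto1* (chr19:47854970-47864790, + strand), the omega class enzyme that also reduces dehydroascorbate, was the basal member of the group. The NP basal cluster C12 had 330 and 265 CPM and the G basal cluster C13 281 and 298 CPM, and these ranges overlapped. The myoepithelial cluster of lactation, C14, had 143 and 185 CPM, overlapping the 156 and 140 CPM of PI luminal progenitors (C7). Its lowest levels were in C5, at 16.2 and 23.2 CPM, and in C15, at 23.3 and 4.45 CPM. *Gsto1* thus ran 21.5-fold from the highest to the lowest cluster mean, a rough value, as the C15 mean rests on 15 and 1 UMIs.

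*Gstm1* (chr3:108012255-108017973, − strand), a mu class enzyme with a wide range of substrates, was highest in C15, at 489 and 187 CPM, followed by C14 at 117 and 101 CPM and C7 at 108 and 92.6 CPM. In NP luminal progenitors (C6) it stood at 9.96 and 9.95 CPM, and it stayed between 9.01 and 10.4 CPM in C4 of the NP mice and C3 of the PI mice. In C18, a stromal cluster outside C1 to C15 with 13827 to 53015 CPM of fibroblast markers, *Gstm1* reached 325 and 237 CPM in NP, 177 and 120 CPM in G, 716 and 737 CPM in L and 406 CPM in the second PI mouse. In C15 the mouse with more *Gstm1* was also the one with more fibroblast transcripts, 1501 against 334 CPM, and the part of these in the result was not tested.

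*Gstt1* (chr10:75783813-75798584, − strand), the theta class enzyme known for dehalogenation, was low everywhere but followed a like order. C15 held 80.7 and 22.2 CPM, C7 30.4 and 32.3 CPM, C1 27.0 and 20.1 CPM, and the alveolar cluster C8 of gestation 2.57 and 2.82 CPM. In C5 it was not counted in either mouse, which allows up to 24.3 and 11.6 CPM, a limit per library that lies above the 8.53 and 8.41 CPM of C4 in NP. Across the 15 cluster means its Pearson r with *Gstm1* on the log2 scale was 0.76, a description over clusters that share libraries. *Gstp1* (chr19:4035407-4037985, − strand), the pi class enzyme, was the most even transferase, from 141 ± 26.7 CPM in C4 to 34.9 ± 8.75 CPM in C7 (SD, n = 2 mice each). Only 2 of its 14 pairs of neighbouring clusters did not overlap between mice.

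Among the peroxidases, *Gpx3* (chr11:54902453-54910377, + strand), the secreted form found in plasma, was the hormone-sensing member. C5 held 4836 and 3418 CPM, C3 2340 and 3982 CPM, C4 2770 and 1644 CPM, C2 2093 and 1101 CPM, and C1 1082 and 2092 CPM. Each of these overlapped its neighbour in the order. The lowest mean was 5.34 CPM, in the alveolar progenitors of lactation (C11), so that *Gpx3* spanned 773-fold over the 15 clusters. This fold is rough, as C11 rests on 9 and 2 *Gpx3* UMIs and C5 on 20 and 41 cells. In C14 and C9 the mice overlapped those of C11. The clusters with the highest sums of hormone-sensing markers, C1 to C5, were also those with the highest mean *Gpx3*, but within them the orders differed: the first G mouse had the highest *Gpx3*, 4836 CPM in C5, at the lowest marker sum, 1882 CPM. Mice of 1 stage could differ in *Gpx3* at close marker sums. In C4 the first and second NP mouse had 3244 and 2954 CPM of markers and 2770 and 1644 CPM of *Gpx3*.

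Within NP and within PI, 1 mouse was higher in *Gpx3* in every cluster. The first NP mouse was higher in 4 of 4 clusters, by 1.51 to 1.90-fold, and the second PI mouse in 5 of 5, by 1.70 to 21.4-fold, while in G the second mouse was higher in 3 of 4. The first NP mouse was also higher in 4 of 4 clusters for *Gpx1*, *Gpx4*, *Gstp1* and *Gsto1*, by at most 1.47-fold. The median ratio of the higher to the lower mouse was 1.90 for *Gpx3*, against 1.08 for *Gpx1*, 1.09 for *Gpx4*, 1.17 for *Gsta4* and 1.19 for *Gstm1*. *Gpx2*, with few counts, came closest at 1.75. The second PI mouse and both NP mice were in oestrus and the first PI mouse was in dioestrus. With 1 mouse in dioestrus, cycle stage and mouse cannot be told apart, and the part of the cycle was not tested.

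**Figure D2:**
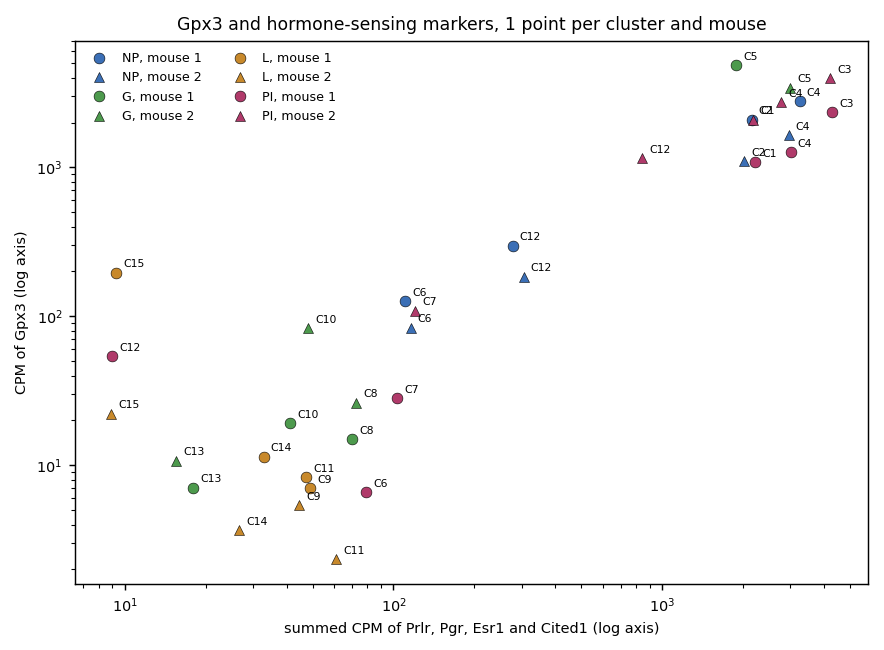
CPM of *Gpx3* (vertical, log axis) against the summed CPM of *Prlr*, *Pgr*, *Esr1* and *Cited1* (horizontal, log axis), 1 point per cluster and mouse with at least 20 cells. Colour gives the stage and shape the mouse. C1 to C5 form the upper right group, and the PI basal cells of C12 lie far apart, with 54 CPM of *Gpx3* in the first mouse and 1152 CPM in the second.

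*Gpx1* (chr9:108338903-108340343, + strand), the common peroxidase of cytosol and mitochondria, was present in every cluster. Its highest mean was 640 ± 35.3 CPM in C5 and its lowest 164 ± 2.06 CPM in C13 (SD, n = 2). The basal cluster C14 of lactation came next, at 227 ± 14.9 CPM. *Gpx4* (chr10:80047166-80056439, + strand), which reduces lipid peroxides in membranes and guards cells against ferroptosis, was highest in luminal progenitors and in the alveolar cluster C8. C7 had 1394 and 1242 CPM, C8 1230 and 1253 CPM and C6 1101 and 1058 CPM, and C7 and C8 overlapped. The other alveolar clusters were lower, C10 at 931 ± 22.1 CPM, C11 at 742 ± 70.3 CPM and C9 at 517 ± 104 CPM. The mean of C1 was above these, at 986 ± 88.4 CPM, but its mice overlapped those of C10. Its lowest mean was 458 ± 21.0 CPM, in C13. With milk protein genes left out of the totals, C9 became the highest cluster for *Gpx1* at 656 CPM and C8 that for *Gpx4* at 1346 CPM. The mean of *Gpx4* was then 934 CPM in C10, 908 CPM in C9 and 795 CPM in C11, so C9 was no longer the lowest alveolar cluster. *Gpx2* (chr12:76792333-76795554, − strand), best known from the gut lining, was nearly confined to basal cells, at 44.7 and 50.8 CPM in C12 and 24.5 and 48.3 CPM in C13. In C14 it was at 2.84 and 10.5 CPM, and no mean outside C12 and C13 exceeded 6.66 CPM.

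The genes whose cluster means most resembled those of a member, by Pearson r of log2(CPM + 1) over the 15 clusters among 8862 genes with at least 20 CPM in a cluster, gave *Abcg1* (0.98), *Cited1* (0.97) and *Fxyd2* (0.97) for *Gpx3*. For *Gsta4* they were *Bmpr1b* (0.97), *Fads6* (0.96) and *Bmp3* (0.96). *Gpx1* was closest to *Zbtb7b* (0.97), *Gsto1* to *Fbxo28* (0.94), *Gpx2* to *Uggt2* (0.93), *Gstt1* to *Efemp2* (0.92), *Gstp1* to *Cir1* (0.91), *Gstm1* to *Prelp* (0.91) and *Gpx4* to *Nav3* (0.89). Within the 9 genes the highest value was that of *Gsta4* and *Gpx3* (0.82).

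The paper reports lasting transcript changes in luminal progenitors after a pregnancy cycle. The comparison of PI with NP asks what differs within 1 cell type. NP mice were 8 weeks old, while PI mice, of no stated age, had passed through gestation, lactation and weaning. Parity and age therefore cannot be told apart here. Counts per mouse were tested with edgeR's quasi-likelihood F-test and a gene was called at a Benjamini-Hochberg adjusted p of at most 0.05, the adjustment covering all genes in the fit. With 2 mice against 2 an exact permutation test of a single gene cannot go below p = 0.333, so the calls depend on borrowing spread across genes, as edgeR does. In luminal progenitors and in both hormone-sensing types, NP and PI cells were almost wholly in different clusters. The 4 comparisons share the same 2 NP and 2 PI mice. In a sum over cells, fewer cells with a transcript and less of it per cell cannot be told apart. Shares of single cells with a UMI are given further on, and at low counts they depend on both.

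In luminal progenitors (Lp, C6 and C7), *Gstm1* rose from 9.96 and 9.94 CPM in the NP mice to 108 and 93.0 CPM in the PI mice. The PI mice lay far above both NP mice, a log2 fold change of 3.42 (SE 0.18, adjusted p = 5.78e-07), or 10.7-fold. Within C6 itself the same gap was seen in the 1 PI mouse with enough cells there, 92.3 CPM in 22 cells. *Gstt1* rose from 8.45 and 10.8 CPM to 30.2 and 32.3 CPM (log2 1.80, SE 0.20, adjusted p = 0.000117). *Gsto1* rose from 116 and 84.9 CPM to 154 and 140 CPM (log2 0.63, adjusted p = 0.00986), and *Gstp1* fell from 56.4 and 54.2 CPM to 41.1 and 28.5 CPM (log2 −0.59, adjusted p = 0.0314). So 4 of 8 members tested were called, 3 of them higher, where 26.9% of all 10766 genes were called (13.9% higher, 13% lower). *Gpx4*, at 1101 and 1057 CPM in NP and 1389 and 1242 CPM in PI, did not pass (adjusted p = 0.0710). *Gpx1* (log2 0.07), *Gpx3* (log2 −0.54) and *Gsta4* (log2 0.52) did not pass either, with overlapping mice, and *Gpx2* was too low to be tested. The calls of *Gsto1* and *Gstp1* were lost without the second NP mouse (adjusted p = 0.103 and 0.0861), and that of *Gstp1* also without the first NP or the second PI mouse.

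In hormone-sensing progenitors (C1 and C2), 6 of the 9 members were higher in PI and none lower, where 16.6% of 10692 genes were called, 9.58% higher and 7.05% lower. *Gstm1* rose from 12.7 and 10.7 CPM to 70.2 and 49.2 CPM (log2 2.28, SE 0.20, adjusted p = 1.91e-05). *Gsta4* rose from 26.8 and 30.3 CPM to 98.9 and 77.7 CPM (log2 1.60, SE 0.16, adjusted p = 5.25e-05). *Gstt1* rose from 6.37 and 9.82 CPM to 27.2 and 20.0 CPM (log2 1.52, SE 0.26, adjusted p = 0.00222). In each of these 3 genes both PI mice lay above both NP mice. *Gpx2* (log2 1.83, at most 6.34 CPM), *Gsto1* (log2 0.64) and *Gpx4* (log2 0.48) were closer to the threshold, with adjusted p of 0.0245, 0.0246 and 0.0485. Without the first NP mouse *Gstm1* and *Gsta4* were the only members still called, and without the second NP mouse *Gstt1* joined them. *Gpx3* stood at 2092 and 1101 CPM in NP and at 1091 and 2099 CPM in PI, a log2 difference of 0.01 (SE 0.31) between mice that overlap fully. *Gpx1* differed by log2 0.08 (SE 0.14, adjusted p = 0.742).

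In differentiated hormone-sensing cells (C3 and C4), *Gstm1* was at 10.5 and 9.34 CPM in NP and 11.0 and 9.15 CPM in PI (log2 −0.07, SE 0.20, adjusted p = 0.860). The few PI cells placed in C4, 40 and 88 per mouse, held 19.0 and 13.4 CPM. *Gsta4* instead rose from 50.1 and 55.3 CPM to 206 and 219 CPM (log2 1.95, SE 0.16, adjusted p = 2.28e-05). Within C4 alone, *Gsta4* was also higher, at 136 and 125 CPM against 49.9 and 55.1 CPM in NP. *Gpx2* rose from 2.27 and 1.31 CPM to 4.93 and 7.35 CPM (log2 1.84, SE 0.35, adjusted p = 0.00522) and *Gstt1* from 8.54 and 8.45 CPM to 16.2 and 14.3 CPM (log2 0.77, SE 0.19, adjusted p = 0.0178). The call of *Gstt1* was lost without the first NP mouse (adjusted p = 0.114) and without the second (0.0864). These 3 of 9 members were all the calls, against 14.3% of 11994 genes (7.64% higher, 6.65% lower). *Gpx3* was at 2778 and 1650 CPM in NP and 2246 and 3941 CPM in PI and did not pass (log2 0.45, SE 0.31).

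**Figure D3:**
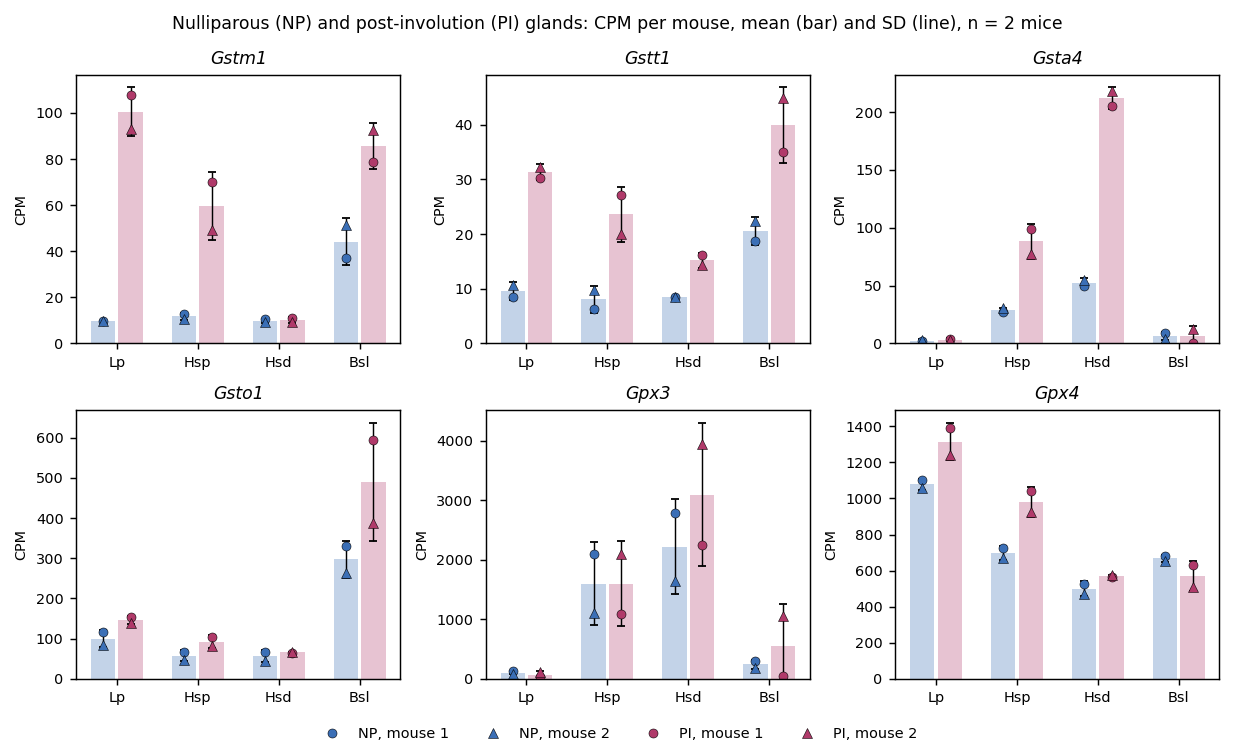
CPM per mouse (points), mean (bar) and SD (line) of 6 genes in NP and PI glands, in luminal progenitors (Lp), hormone-sensing progenitors (Hsp), differentiated hormone-sensing cells (Hsd) and basal cells (Bsl), with n = 2 mice each. *Gstm1* is called in Lp, Hsp and Bsl and *Gsta4* in Hsp and Hsd, though the change of *Gsta4* was not shown to differ between luminal types, and the mice of 1 stage lie furthest apart for *Gpx3*.

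A fit over all 3 luminal types, with the mouse as a term, asked if these types differed in how far PI lay from NP. For *Gstm1* the change was larger in Lp than in Hsd by 3.42 on the log2 scale (SE 0.23, adjusted p = 1.93e-09) and larger in Hsp than in Hsd by 2.27 (SE 0.22, adjusted p = 1.44e-06). *Gstt1* changed more in Lp than in Hsd by 1.00 (SE 0.27, adjusted p = 0.0119), a call lost without the first NP mouse (0.86, adjusted p = 0.151). *Gpx3* differed by −1.15 between Lp and Hsd (SE 0.22, adjusted p = 0.000900), but not in a fit without the mouse term (−1.01, adjusted p = 0.431). Between Lp and Hsd 3 of 9 members were called, against 20.2% of 11743 genes (10.4% higher, 9.84% lower), and between Hsp and Hsd 1 of 9, against 3.82% (2.70% higher, 1.12% lower). For *Gsta4* the difference between Lp and Hsd was −1.46 (SE 0.52, adjusted p = 0.0527), and between Hsp and Hsd −0.42 (SE 0.19, adjusted p = 0.261), so neither was shown to differ.

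Shares of single cells with a UMI were counted beside these sums. At so few UMIs per cell a share rises with the mean level. It therefore does not tell more cells with the transcript from more of it per cell. A *Gstm1* UMI was found in 8.33% and 6.62% of NP luminal progenitors and in 50.2% and 41.9% of those in PI, at median depths of 7768, 6590, 6424 and 5592 UMIs per cell. In Hsp the shares were 20.7% and 17.8% in NP and 58.9% and 41.1% in PI. In Hsd they were 12.4%, 10.4%, 7.96% and 5.48%, at 10119, 10280, 7212 and 5634 UMIs. After each cell was thinned to 2000 UMIs, which left out no cell, the shares were 2.15% and 1.58% in NP Lp, 16.7% and 15.4% in PI Lp, and 1.36% to 1.77% in the 4 Hsd sums. The thinned NP Lp share thus lay close to that of Hsd, and how much of either is free RNA was not tested. *Gsta4* was found in 1.61% to 2.21% of luminal progenitors in all 4 mice, and after thinning in 0.269% to 1.26%. In Hsd its thinned share went from 9.26% and 7.89% in NP to 27.2% and 26.5% in PI.

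Markers of other cell types moved with some of these results. In Lp the alveolar markers *Csn2*, *Wap*, *Lalba* and *Glycam1* summed to 8.75 and 20.3 CPM in C6 of the NP mice and to 1454 and 1766 CPM in C7 of the PI mice, and in Hsp to 5.61 and 1.73 CPM in C2 and 706 and 801 CPM in C1. In Hsd they summed to at most 0.689 CPM in C4 of NP and 9.59 CPM in C3 of PI. In the alveolar cluster C8 of gestation these markers summed to 37248 and 22816 CPM, and *Gstm1* was at 14.4 and 19.5 CPM. *Gstm1* was at 19.1 and 14.97 CPM in C10 of gestation. In lactation it was at 26.2 and 25.6 CPM in C9 and at 60.1 and 41.1 CPM in C11. The part of the alveolar markers in the *Gstm1* result was not tested. The fibroblast markers *Col1a1*, *Col1a2*, *Col3a1*, *Dcn* and *Lum* summed to 6.34 and 183 CPM in C6 of NP and to 0.27 and 19.0 CPM in C7 of PI, with *Col1a1*, *Col3a1* and *Lum* at 0 in the first PI mouse.

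In luminal progenitors most lists of the wider glutathione and peroxide genes held more members higher in PI than lower. Of 13 other transferase genes tested in Lp, 9 were higher and 1 lower, with a median log2 change of 1.25 against −0.02 over all genes. The theta class genes *Gstt2*, from 6.64 and 7.45 CPM to 31.3 and 28.0 CPM (log2 2.16, adjusted p = 4.42e-05), and *Gstt3* (log2 1.95, adjusted p = 4.10e-05) led this list. Over all genes 13.9% were higher and 13% lower. The lists were chosen with earlier results of these data known, so their counts beside these shares are a description and no test. Of the other peroxidases only *Gpx8* could be tested, and it fell from 11.8 and 8.69 CPM to 2.12 and 1.75 CPM (log2 −2.33, adjusted p = 0.000664). Of 18 tested genes for peroxiredoxins, thioredoxins, dismutases and catalase, 13 were higher and none lower, among them *Glrx* (log2 1.55) and catalase, *Cat* (log2 1.45). Glutathione synthesis and recycling had 9 higher and 1 lower of 18: *Ggt1*, which starts the breakdown of external glutathione, rose by log2 2.26 and *Chac1*, which degrades it in the cytosol, by 1.63. NRF2 regulators and targets had 6 higher of 13, with *Hmox1*, the haem oxygenase, from 48.0 and 84.0 CPM to 362 and 231 CPM (log2 2.26, adjusted p = 0.000120) and *Fth1*, a ferritin chain, at log2 1.52. Selenoprotein genes were split, 2 higher and 2 lower of 10. *Sepp1*, the selenium carrier, rose by log2 1.00 and *Trnau1ap*, a factor of selenocysteine tRNA, fell by 0.66 on that scale.

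In Hsp, 5 of 12 other transferases were higher and 1 lower, with the membrane transferase *Mgst1* from 177 and 197 CPM to 546 and 642 CPM (log2 1.66, adjusted p = 2.76e-05). The same gene fell in Hsd, from 47.4 and 35.7 CPM to 32.3 and 19.2 CPM (log2 −0.82, adjusted p = 0.0217), where 4 of 17 other transferases were higher and 3 lower. Peroxide genes had 9 of 18 higher in Hsp, such as *Prdx4* (log2 1.14), and 4 of 18 in Hsd, such as *Prdx5* (log2 0.75), and none lower in either. Over all genes 9.58% were higher and 7.05% lower in Hsp, and 7.64% and 6.65% in Hsd. *Gpx8*, the 1 other peroxidase tested in Hsd, fell from 3.52 and 2.27 CPM to 0.548 and 0.311 CPM (log2 −2.98, adjusted p = 0.00354). Glutathione synthesis and recycling had 6 higher and 1 lower of 18 in Hsp, and 3 higher and 2 lower of 18 in Hsd. Within this list *Gsr*, which regenerates reduced glutathione, fell in both, by 0.60 in Hsp and 0.65 in Hsd on the log2 scale (adjusted p = 0.0207 and 0.0229). NRF2 regulators and targets had 6 of 13 higher in Hsp and 3 of 13 in Hsd, and none lower in either. *Hmox1* rose in both, by log2 2.02 and 1.58, and *Sepp1* by log2 1.28 and 1.37. These lists were chosen with earlier results of these data known, and their counts are a description.

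The basal comparison of PI with NP rested on few cells, 28 and 59 in the PI mice against 504 and 283 in the NP mice. *Gstm1* rose from 36.9 and 51.4 CPM to 78.7 and 92.8 CPM (log2 1.04, SE 0.31, adjusted p = 0.0427) and *Gstp1* fell from 107 and 102 CPM to 43.7 and 57.6 CPM (log2 −0.97, SE 0.29, adjusted p = 0.0374). *Gpx3* was called higher (log2 1.41, SE 0.42, adjusted p = 0.0407), but the mice were at 299 and 184 CPM in NP and at 52.5 and 1049 CPM in PI, and they overlapped. Without the second PI mouse the direction turned, to log2 −2.32 (adjusted p = 1.19e-05). That mouse held 842 CPM of the hormone-sensing markers in C12 and the first held 8.96 CPM, with *Prlr*, *Esr1* and *Cited1* at 0, while the NP mice held 278 and 305 CPM. The first PI mouse held 851 CPM of the immune markers in C12, all of it *Cd74*, against 10.6 to 118 CPM in the other 3 mice. The part of either in the results was not tested. These 3 of 9 members compare with 7.43% of 8511 genes (4.74% higher, 2.69% lower). Leaving out any 1 mouse ended the call of *Gstp1*, and every mouse but the first PI mouse that of *Gstm1* (adjusted p up to 0.515). The call of *Gpx3* was also lost without the second NP mouse (adjusted p = 0.105). NRF2 regulators and targets had 4 higher and none lower of 12 genes here, such as *Osgin1*, from 43.7 and 30.0 CPM to 140 and 144 CPM (log2 1.90, adjusted p = 3.39e-05).

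Gestation was compared with NP in differentiated hormone-sensing cells and in basal cells, with the same NP mice as above. In Hsd, *Gsta4* rose from 50.1 and 55.3 CPM in NP to 398 and 430 CPM in G (log2 2.74, SE 0.20, adjusted p = 1.82e-40), and this call was kept in every alternative run. *Gsto1* fell from 66.5 and 45.5 CPM to 16.2 and 23.2 CPM (log2 −1.65, SE 0.45, adjusted p = 0.00234), and *Gstp1* from 161 and 122 CPM to 89.3 and 96.8 CPM (log2 −0.82, SE 0.27, adjusted p = 0.0165). *Gpx3* rose from 2778 and 1650 CPM to 4836 and 3418 CPM (log2 0.65, SE 0.20, adjusted p = 0.00887). *Gstt1* had no UMI in the G mice, against 8.54 and 8.45 CPM in NP, which lies under the 24.3 and 11.6 CPM that a count of 0 allows there. So 4 of 9 members were called, 2 in each direction, against 18.6% of 10978 genes (8.03% higher, 10.6% lower). The call of *Gpx3* was lost without the second NP, the first G or the second G mouse (adjusted p = 0.0827, 0.505 and 0.0937), that of *Gstp1* without the first NP or either G mouse (0.120, 0.0818 and 0.228) and that of *Gsto1* without the first NP or the second G mouse (0.0683 and 0.104). In this comparison edgeR gave every gene the variance of the trend, with no weight on the gene's own spread, which allows very small p-values. The G sums hold 20 and 41 cells, the median log2 change of all genes was −0.20, and the haemoglobin transcripts in them summed to 617 and 426 CPM, all of them *Hba-a1*, against 15.5 and 28.0 CPM in C4 of NP. Changes relative to that median are therefore 0.20 higher, and the part of the haemoglobin transcripts was not tested.

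Around these members, glutathione synthesis and recycling had 5 lower and none higher of 17 genes in Hsd of gestation, where 8.03% of all genes were higher and 10.6% lower. *Gsr* fell from 254 and 269 CPM to 122 and 42.6 CPM (log2 −2.15) and *Gclc*, the catalytic subunit of the rate-limiting enzyme of glutathione synthesis, from 251 and 221 CPM to 81.1 and 65.8 CPM (log2 −1.97). *Sepp1* rose from 18.6 and 14.98 CPM to 746 and 592 CPM (log2 5.05, SE 0.20). Of the other transferases 2 of 13 were higher, *Mgst1* (log2 1.83) and *Gstk1* (log2 1.56). Peroxide genes had 5 higher and 1 lower of 18, led by *Cat* (log2 1.59) and *Prdx2* (log2 1.15) and, downwards, *Prdx6* (log2 −1.19).

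In basal cells, *Gpx3* fell from 299 and 184 CPM in NP to 7.04 and 10.5 CPM in G (log2 −4.68, SE 0.23, adjusted p = 4.58e-10). The hormone-sensing markers moved with it, from 278 and 305 CPM in C12 of NP to 17.9 and 15.6 CPM in C13 of G, and their part was not tested. *Gpx1* fell from 335 and 329 CPM to 166 and 163 CPM (log2 −0.93, SE 0.12, adjusted p = 1.57e-05). *Gstp1* fell from 107 and 102 CPM to 59.9 and 69.6 CPM (log2 −0.61, SE 0.14, adjusted p = 0.00180) and *Gpx4* from 682 and 655 CPM to 444 and 475 CPM (log2 −0.45, SE 0.12, adjusted p = 0.00567). These 4 of 9 members were lower and none was higher, where 46.1% of 11086 genes were called (24.3% higher, 21.9% lower), and all 4 calls were kept in every alternative run. *Gstm1*, *Gstt1*, *Gsto1*, *Gsta4* and *Gpx2* overlapped between the stages. The other peroxidases *Gpx7*, from 12.5 and 14.1 CPM to 37.2 and 37.9 CPM (log2 1.61), and *Gpx8* (log2 0.64), both of the endoplasmic reticulum, were higher. Other transferases had 6 higher and none lower of 12, with *Gstk1* (log2 1.79) and *Gstm5* (log2 1.14), and glutathione synthesis and recycling 2 higher and 9 lower of 18, with *Chac1* (log2 −2.75) and *Gsr* (log2 −1.57).

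**Figure D4:**
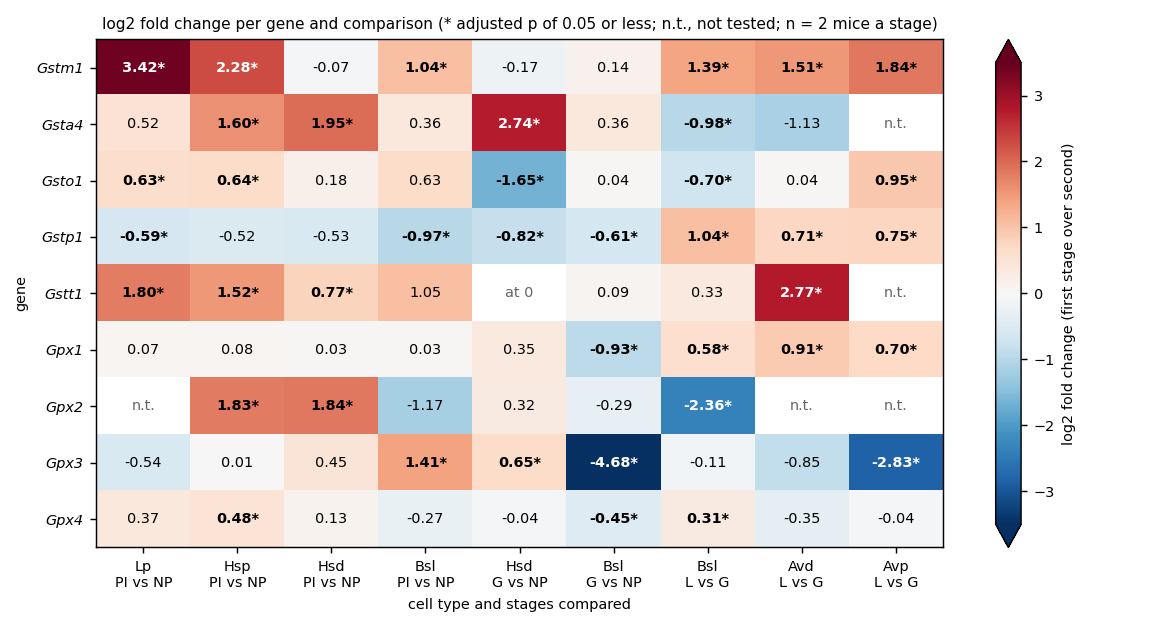
log2 fold change (number and colour) of each member (rows) in each comparison (columns), first stage over second, from edgeR sums of 2 mice a stage. Stars mark an adjusted p of 0.05 or less, n.t. a gene too low to be tested and "at 0" a gene without counts in 1 stage. *Gstm1* has positive calls in 6 of the 9 columns and no negative one.

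From gestation to lactation, basal cells showed 7 of 9 members called, 4 higher and 3 lower, against 48.3% of 12720 genes (24.2% higher, 24.0% lower). The G mice are those of the comparison above, so both rest on the same sums. *Gstm1* rose from 43.8 and 46.0 CPM to 117 and 101 CPM (log2 1.39, SE 0.14, adjusted p = 0.000112) and *Gstp1* from 59.9 and 69.6 CPM to 134 and 113 CPM (log2 1.04, SE 0.14, adjusted p = 0.000599). *Gpx1* rose from 166 and 163 CPM to 216 and 237 CPM (log2 0.58, adjusted p = 0.00435). *Gpx2* fell from 24.4 and 47.6 CPM to 2.84 and 10.5 CPM (log2 −2.36, SE 0.52, adjusted p = 0.00594), *Gsto1* from 280 and 297 CPM to 143 and 185 CPM (log2 −0.70) and *Gsta4* from 9.31 and 8.08 CPM to 4.40 and 3.73 CPM (log2 −0.98, adjusted p = 0.0129, but 0.0550 by DESeq2). *Gpx4* rose by log2 0.31 (adjusted p = 0.0407), a call lost when any 1 mouse was left out (adjusted p = 0.0684 to 0.169). *Gpx3* stayed low, at 7.04 and 10.5 CPM in G and 11.4 and 3.67 CPM in L. Of 14 other transferases 4 were higher and 3 lower, and of 18 genes of glutathione synthesis and recycling 7 were higher and 5 lower. NRF2 regulators and targets had 2 higher and 4 lower of 13, and peroxide genes 4 higher and 6 lower of 19. In these lists *Nqo1*, an NRF2 target, rose (log2 1.97) and *Srxn1*, which repairs peroxiredoxins, fell (log2 −1.54). *Gclc* also fell (log2 −1.87), as did both *Gpx8* and *Gpx7* (log2 −1.01 and −0.76).

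In differentiated alveolar cells (Avd, C8 in G and C9 in L) the large share of milk transcripts separates CPM from the fitted change. *Gstt1* rose on both, from 2.57 and 2.82 CPM to 12.1 and 8.05 CPM (log2 2.77, SE 0.54, adjusted p = 0.00330), and *Gstm1* from 14.4 and 19.5 CPM to 26.0 and 25.5 CPM (log2 1.51, SE 0.32, adjusted p = 0.00564). *Gpx1* was at 375 and 365 CPM in G and 358 and 387 CPM in L, so that its call (log2 0.91, SE 0.18, adjusted p = 0.00384) is not seen in CPM of all transcripts. The same holds for *Gstp1*, called higher (log2 0.71, adjusted p = 0.0231) at a lower CPM in L, 53.7 and 68.5 against 68.9 and 72.2. With milk protein genes left out of the totals, the mean of *Gpx1* was 401 CPM in C8 and 656 CPM in C9. That of *Gstp1* was then 76.4 CPM in C8 and 106 CPM in C9. *Gpx4* went from 1230 and 1253 CPM to 445 and 589 CPM, yet its scaled change did not pass (log2 −0.35, SE 0.21, adjusted p = 0.275). The L sums held 43 and 48 cells, and the median change over all genes was log2 −0.14. In sum 4 of 8 members tested were called, none lower, against 18.7% of 11860 genes (9.54% higher, 9.17% lower). The call of *Gpx1* was lost without the second G mouse (adjusted p = 0.0574) and that of *Gstp1* without either G mouse or the second L mouse (0.0840, 0.143 and 0.333). Beside them *Ggt1* rose (log2 3.22) and *Glrx* rose (log2 2.14), and 4 of 18 genes of glutathione synthesis and recycling were higher and none lower.

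In alveolar progenitors (Avp, C10 in G and C11 in L), *Gstm1* rose from 19.1 and 14.97 CPM to 58.5 and 40.3 CPM (log2 1.84, SE 0.29, adjusted p = 0.00161) and *Gsto1* from 76.5 and 68.0 CPM to 94.8 and 137 CPM (log2 0.95, SE 0.20, adjusted p = 0.00729). *Gpx1* rose from 314 and 309 CPM to 442 and 389 CPM (log2 0.70, adjusted p = 0.00811) and *Gstp1* from 57.4 and 60.5 CPM to 98.4 and 62.1 CPM (log2 0.75, adjusted p = 0.0401). *Gpx3* fell from 19.1 and 83.0 CPM to 8.86 and 2.30 CPM (log2 −2.83, SE 0.79, adjusted p = 0.0257). Of 6 members tested 5 were called, against 28.0% of 8446 genes (15.7% higher, 12.3% lower). The basal markers were also higher in C11, 4785 and 3422 CPM against 162 and 221 CPM in C10, and their part in these values was not tested. Without the second G mouse *Gstp1*, *Gpx1* and *Gpx3* were no longer called (adjusted p = 0.0816, 0.0687 and 0.118), and without the first G mouse *Gstp1* and *Gpx1* were not (0.128 and 0.0672). *Gstp1* was also lost without the first L mouse (0.394). Of the 13 genes of NRF2 regulation and its targets 8 were higher and 1 lower, with *Nqo1* from 3.06 and 3.12 CPM to 19.5 and 35.7 CPM (log2 3.36) and *Osgin1* (log2 2.91) and, downwards, the repressor *Bach1* (log2 −0.99).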

How the data were processed

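Single mammary cells from 8 mice, 1 library per mouse, were measured with 10x Chromium 3′ chemistry (v2). The deposited files hold unnormalised UMI counts per gene and cell, made by the authors with Cell Ranger on mm10 (STAR is also named in the submitters' notes). A deposited table of cells gives the authors' clusters, a quality flag (failed cells were left out), the UMI total and the mitochondrial fraction of UMIs per cell, as computed by the authors. Doublet clusters were set apart by the authors and no doublet caller was run here. UMI counts were summed per mouse and cluster, for clusters C1 to C15 with at least 20 cells in a mouse, and divided by the total of the sum (CPM). For tests, cells of a type were summed per mouse and fitted with edgeR 4.0.16 (R 4.3.3): quasi-likelihood F-test, TMM factors, filterByExpr with a minimum count of 10, Benjamini-Hochberg at 0.05. The standard error is the log2 fold change over the square root of F. DESeq2 1.42.0, the count filter, the milk protein genes, the replicate number, the leading cluster of a type alone and each mouse left out were the alternatives. Stage and library cannot be told apart beyond the spread of 2 mice. Ages of the G, L and PI mice are not given, so stage and age cannot be told apart either.

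The 9 members and the gene lists were chosen with earlier results of these data known. Genes named beside the members are, per list and direction, the called genes with the largest changes and a mean of at least 20 CPM in 1 group. *Gpx8* in Lp and Hsd, PI against NP, lies under that level. It is named as the only tested gene of its list there. Replicate numbers mark different mice, and deviations of same-numbered mice correlated between −0.05 and 0.12 across genes, so the numbers were not used as pairs. Intervals and limits from counts cover counting error only. The procedure was tested on simulated counts. Symbols carried by more than 1 gene ID (56 symbols) were kept apart by ID.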

Additional observations from a re-analysis of the deposited data

Results flagged for a closer look

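In 4 cases the gap between PI and NP was not equal across luminal cell types, by the test of the difference itself (edgeR's quasi-likelihood F-test, Benjamini-Hochberg adjusted). The change of *Gstm1* was larger in hormone-sensing progenitors than in differentiated hormone-sensing cells by 2.27 on the log2 scale, and larger in luminal progenitors than in differentiated hormone-sensing cells by 3.42. That of *Gstt1* was larger in luminal progenitors than in differentiated hormone-sensing cells by 1.00, a call lost without the first NP mouse (0.86). That of *Gpx3* differed by −1.15 between the same types, at levels that differed between mice of 1 stage by 1.51 to 3.88-fold in the clusters of these types. The *Gpx3* difference was not called in an edgeR fit without the mouse term (−1.01, adjusted p = 0.431).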

How the results depend on the processing

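Of 44 calls on members, 22 kept their direction and passed the test in each alternative run, among them *Gstm1* in both progenitor types, in basal, Avd and Avp cells of lactation and in both differences between luminal types. Of 386 alternative values of calls 68 no longer passed and 1 reversed: *Gpx3* in basal cells, PI against NP, at −2.32 without the second PI mouse. Milk protein genes left out changed no call, but moved the highest level of *Gpx1* to C9 (656 CPM) and of *Gpx4* to C8 (1346 CPM). With at least 50 cells a sum, the highest were C3 for *Gpx1* (448 CPM), *Gpx3* (3161 CPM) and *Gsta4* (217 CPM). DESeq2 called 1590 genes in Lp (2892 by edgeR), 823 in Hsp (1778), 385 in basal PI against NP (632), 3098 in basal G against NP (5114) and 1144 in Avp (2368), and 0 basal PI members (3) and 3 Avp members (5). It ended the calls of *Gstp1* in Lp, *Gsto1* and *Gpx2* in Hsp, *Gstt1* in Hsd, *Gstp1* and *Gpx3* in Hsd of gestation, *Gsta4* and *Gpx4* in basal L against G, and *Gstp1* and *Gpx3* in Avp (adjusted p = 0.0550 to 0.217). DESeq2 also called *Gpx4* higher in Lp (adjusted p = 0.0432) and *Gpx1* higher in Hsd of gestation (0.0468), which edgeR did not. In Lp *Gpx4* passed by edgeR with no count filter too (adjusted p = 0.0221). With no count filter, basal PI against NP had 18 genes and 0 members called, and the differences of Hsp and of Lp from Hsd had 2 (1) and 5 (3) members. Without the mouse term those had 111 genes (449) and 1159 genes (2375). The causes were not tested.

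Pairing the mice by number (replicate block) left 1 member called in basal PI against NP (3 without it). It ended the call of *Gpx2* in Hsp (adjusted p = 0.0582), of *Gstm1* and *Gstp1* in basal PI cells, and gave calls of *Gpx3* in Lp and *Gstp1* in Hsp and Hsd. A number marks no shared litter or day, so no effect is read from it.

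Leaving out 1 mouse at a time, with the lone mouse assumed to vary like the others, gave these lowest and highest counts of genes and of members called. Lp had 1704 to 2472 genes and 2 to 5 members, Hsp 476 to 1960 and 2 to 6, and Hsd 928 to 2458 and 2 to 5. Basal PI against NP had 194 to 891 and 0 to 2, and its *Gpx3* change ran from −2.32 to 2.10. Hsd G against NP had 808 to 1580 and 1 to 3, and basal G against NP 3423 to 5088 and 4 to 5. Basal L against G had 4657 to 5703 and 6 to 7, Avd 609 to 1890 and 1 to 4, and Avp 1625 to 2538 and 2 to 5. The difference of Hsp from Hsd had 177 to 514 and 1 to 2, that of Lp from Hsd 1123 to 2384 and 2 to 5. Members with under 10 CPM, such as *Gpx2* in luminal cells, rest on few UMIs.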

Other observations

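Outside the 15 epithelial clusters, the stromal cluster C18 held both *Gpx3* and *Gstm1*. *Gpx3* stood there at 1061 and 653 CPM in NP, 408 and 106 CPM in G, 714 and 993 CPM in L and 2204 CPM in the second PI mouse, and *Gstt1* at 147 CPM in the second L mouse. These sums hold 24 to 284 cells, and no stage was tested in them.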
